A study of Mus musculus with 12 samples.

Results

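The first 5 days of the chemical combination SGCF were examined in mouse embryonic fibroblasts, primary connective tissue cells grown out of embryos. The comparison sets the 2 arrays titled SGCF day 5 against the 2 titled SGCF day 0, which makes 4 of the 12 arrays of the series, and covers 10674 genes. The other 8 arrays hold SGCF at day 10 and a second combination, 6TCF, at days 0, 5 and 10, with 2 arrays in each group. The title of the series names chemically induced conversion of fibroblasts into several lineages, and the comparison addresses its earliest sampled stage under SGCF. SGCF is known here only by its code name, and no source used here lists what it contains.

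All 4 arrays share the same source and base culture as far as the labels say. Fibroblasts were grown in medium with 10% fetal bovine serum, seeded at 20000 cells per 35 mm dish, and moved a day later to a medium with 15% serum, 2 mM GlutaMAX, nonessential amino acids, β-mercaptoethanol and 40 ng/ml basic fibroblast growth factor. The labels name neither a mouse strain nor an embryonic age. They do not say whether the day 0 cells had already met the new medium or SGCF, and no array is labelled as an untreated culture at day 5. Treatment, time in culture and a change of medium therefore cannot be told apart in any change reported here. The labels also leave unsaid whether replicates came from separate embryos or dishes, and p-values then measure only the spread between these arrays, which may be technical.

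Fibroblasts build the collagen and proteoglycan matrix of connective tissue, and transforming growth factor beta (TGF-beta) drives them toward contractile, matrix-rich myofibroblasts. Bone morphogenetic proteins (BMPs) belong to the same superfamily but signal through other receptors and SMAD proteins, and Wnt ligands act through beta-catenin, which switches on a set of feedback genes. Primary fibroblast cultures can carry other cells of the embryo, among them tissue macrophages. The RNA of a dish is a mixture, so fewer cells of a type and less RNA per cell cannot be told apart.

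Levels are given as log2(intensity + 16) after quantile normalization, a scale on which the changes of dim genes are understated. On it 1 unit of change is a 2-fold difference. That reading does not hold for genes that lay below the filter on low values, 5.25, on either day, whose changes are set against the floor of the array. Changes are day 5 minus day 0 with the standard error (SE) from limma, fitted on all 12 arrays. A gene was called, and is said to have risen or fallen, at a Benjamini-Hochberg adjusted p under 0.05 over all genes tested. By that rule 1370 genes (12.8%) rose and 1357 (12.7%) fell by day 5. Of these, 398 (3.73%) rose and 384 (3.6%) fell at least 2-fold, 82 and 97 at least 4-fold, and 29 and 35 at least 8-fold. The median change of all genes was 0.02. Both day 5 arrays lay above both day 0 arrays for 29.3% of genes and below them for 26.6%, whether called or not. Genes are not independent replicates, but across them the 2 arrays of a day correlated at r = 0.985 (day 0) and 0.992 (day 5), and arrays of different days at 0.946 to 0.95. The 2 day 0 arrays differed from each other by a median of 0.226 per gene, the widest spread of the 6 groups of the series, against 0.0974 to 0.162 in the others. For each gene the 6 groups share 1 estimate of the spread, which may be too small for day 0. Precision is limited by having 2 arrays a group. The actin controls, whose 3' minus 5' difference grows with RNA degradation, averaged 0.33 at day 0 and 0.45 at day 5. The Gapdh controls averaged -0.02 and 0.10. The gene lists below are described by counts, and where leaving out a single array moved a count by over 1.5 times, the counts without each array are given in a fixed order: first and second day 0 array, then first and second day 5 array.

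The cells carried the markers of their label at both days. Vim, the intermediate filament protein of mesenchymal cells, measured 13.95 and 13.64 at day 0 and 13.74 and 13.93 at day 5. The surface antigen gene Thy1 measured 12.15 and 11.75, then 12.10 and 12.09. For both genes the days overlapped, and neither was called (changes of 0.04 ± 0.15 and 0.15 ± 0.14). Among all 20 fibroblast markers, 5 rose (25%), 7 fell (35%) and 8 were not called, with a median change of 0.09. Lum, whose product lumican spaces collagen fibrils, rose by 2.78 ± 0.15, and Dcn, the related proteoglycan decorin, by 1.85 ± 0.13. The elastic fibre gene Fbln2 fell by 3.42 ± 0.22, the growth factor receptor gene Pdgfrb by 1.26 ± 0.17 and the collagen chain gene Col1a1 by 1.28 ± 0.16. The summed intensity of the 20 markers was 75130 and 88160 on the day 0 arrays and 68770 and 74970 on the day 5 arrays.

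The largest rise was that of Bmp2, which encodes a secreted BMP ligand. Its levels were 5.73 and 4.75 at day 0 and 11.59 and 11.99 at day 5, a change of 6.55 ± 0.26 (limma adjusted p = 9.27e-09). The days did not overlap, which the choice of the largest rises required. The day 0 mean of 5.24 lay just below the filter on low values, 5.25, so the change is set against the floor of the array and no fold is given. Mmp3, which encodes the matrix protease stromelysin-1, went from 7.32 and 7.53 to 12.83 and 12.80, a rise of 5.39 ± 0.16. Slc14a1, a urea transporter gene, went from 6.75 and 6.15 to 11.56 and 11.75, a rise of 5.21 ± 0.25. Of the same size were the rises of Nptx1 and Nefl, genes of neurons described further on, and of Lratd1 (5.11 ± 0.13), whose level was still 10.12 at day 10. Stc1, the secreted glycoprotein stanniocalcin-1, rose by 4.38 ± 0.16. Cadps, which primes dense-core vesicles for release, rose by 4.29 ± 0.13 and Gch1, the first enzyme of tetrahydrobiopterin synthesis, by 4.21 ± 0.28. Il33, an alarmin cytokine, rose by 4.15 ± 0.16, and the protease gene Mmp10 by 3.94 ± 0.22. Lrrn1, a leucine-rich repeat membrane protein, and Rgs5, a brake on G protein signalling found in pericytes, rose by 4.09 ± 0.23 and 3.80 ± 0.23.

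The 15 largest falls were mixed and held matrix genes such as Aspn, Lox, Fmod, Ccn5 and Postn. Beside them stood Lyz2, C1qa, Ctss and Tyrobp of the macrophage list, and Lyz1, whose probe set may share signal with Lyz2. The values of the latter group are given with the macrophage markers. Aspn, a proteoglycan that binds collagen and TGF-beta, measured 9.77 and 10.41 at day 0 and 4.61 and 4.59 at day 5. It fell by 5.49 ± 0.38 (limma adjusted p = 5.95e-07) and ended below the filter value on both arrays, so no fold is given. Prss23, a secreted serine protease gene, went from 12.25 and 12.14 to 6.37 and 7.43, a change of -5.30 ± 0.39, with more than a unit between its day 5 arrays. Lox, whose enzyme crosslinks collagen and elastin, went from 13.22 and 12.84 to 8.83 and 9.01, a change of -4.11 ± 0.18. Postn, the matricellular protein periostin, fell by 3.75 ± 0.13 from 13.14 and 12.99 to 9.16 and 9.48. In all 4 genes every day 5 array lay below every day 0 array, which the choice of the largest falls required. The secreted C1q family gene C1qtnf3 fell by 4.48 ± 0.27. Tnmd, a tendon membrane protein gene (-3.74 ± 0.11), Ccn5, a matricellular protein gene (-3.92 ± 0.15), and Cdc42ep3, an effector of a small GTPase (-3.56 ± 0.24), fell too. Levels at day 10 were not uniform among them: Lox averaged 11.20, Postn 11.77 and Aspn 7.77 on those arrays, and C1qtnf3 4.72.

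**Figure D1:**
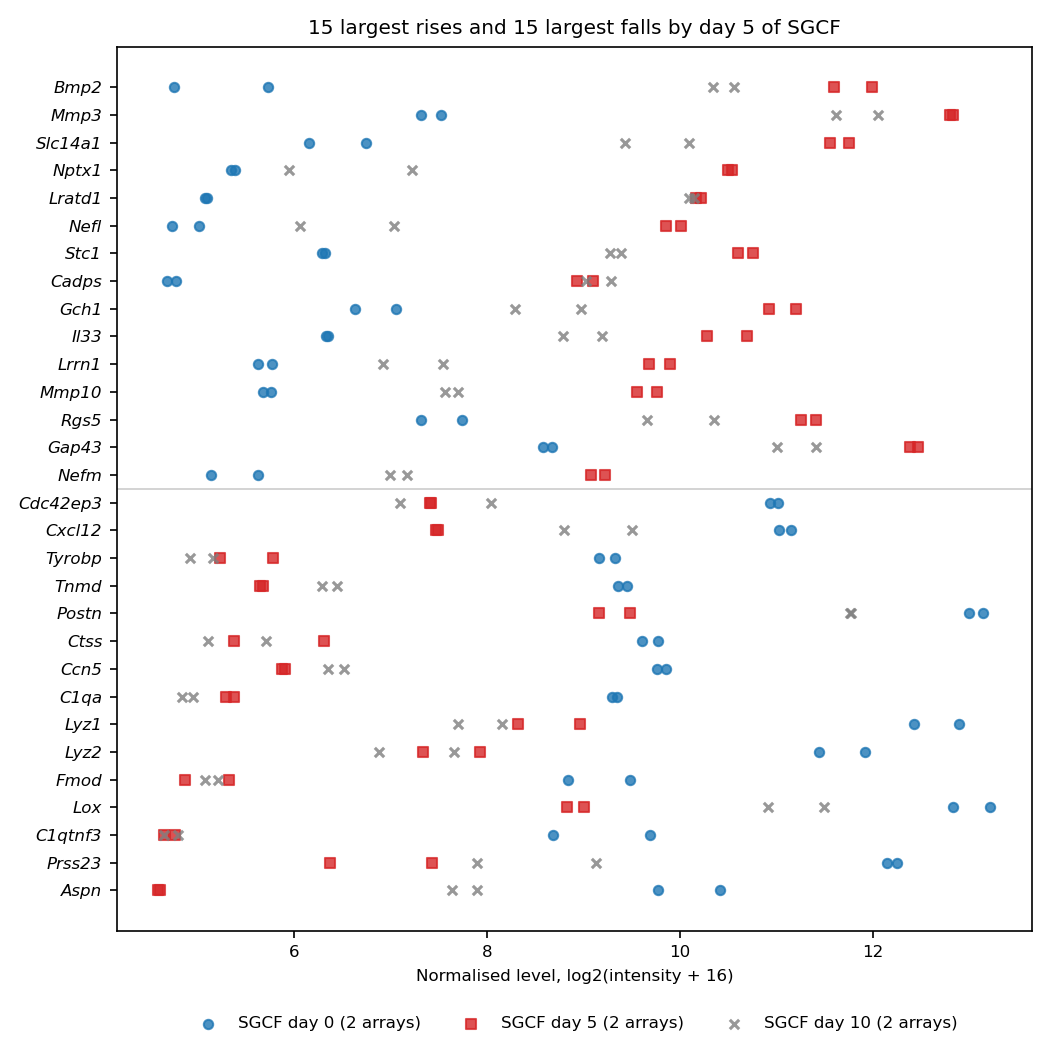
The normalised level, log2(intensity + 16), of the 15 genes with the largest called rises (top) and the 15 with the largest called falls (bottom), with 1 point for each array of SGCF at days 0, 5 and 10. The days 0 and 5 do not overlap for any of the 30 genes, which the choice of genes required, and the day 10 points of Nptx1 and Nefl lie nearer to day 0 than to day 5.

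Of 24 collagen chain genes, 13 fell (54.2%), 1 rose and 10 were not called, with a median change of -0.84. Col8a1, a short-chain collagen of vessel walls and other matrices, fell by 2.85 ± 0.16, from 9.88 and 10.46 to 7.30 and 7.33. Col11a1, which sets the width of collagen fibrils, fell by 2.52 ± 0.23, and the basement membrane chain Col4a5 by 2.24 ± 0.20. Col18a1, the source of endostatin, was the exception and rose by 2.72 ± 0.17, from 8.08 and 7.66 to 10.49 and 10.68. Col3a1, an abundant fibrillar chain, changed by -0.39 ± 0.14 and was not called (limma adjusted p = 0.0518). The counts of risen chains without each array were 5, 1, 2 and 1.

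Among 9 small leucine-rich proteoglycans, 6 fell and 2 rose, with a median of -1.78. Fmod, or fibromodulin, which binds collagen fibrils, fell by 4.06 ± 0.20 from 9.48 and 8.84 to 4.87 and 5.33. Ogn, or osteoglycin, fell by 3.26 ± 0.24 from 10.92 and 10.95 to 7.57 and 7.78. The 2 that rose were Lum, from 9.71 and 9.33 to 12.21 and 12.39, and Dcn, from 10.78 and 10.81 to 12.63 and 12.67. For both risen genes and both fallen ones named here the days did not overlap, which for Fmod the choice of the largest falls required.

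Collagen-modifying genes fell in 7 of 14 cases, with a median of -0.50 and the other 7 not called. Beside Lox they included P4ha2, a prolyl hydroxylase subunit (-1.19 ± 0.13), and Serpinh1, the collagen chaperone HSP47 (-0.87 ± 0.12). Of 18 elastic fibre and matricellular genes, 10 fell and 4 rose (median -0.76). Fbln5, needed to assemble elastic fibres, fell by 3.41 ± 0.14 and Mfap4, a microfibril protein gene, changed by -2.33 ± 0.14, while Efemp1, another fibulin, rose by 1.30 ± 0.17. Counts of risen genes without each array were 5, 3, 3 and 2. Matrix proteases and their inhibitors were divided, with 6 of 20 up, 8 down and a median of 0.01 whose sign changed with the processing. The stromelysin genes Mmp3 and Mmp10 and the metalloprotease gene Mmp19 (1.99 ± 0.14) rose, and the aggrecanase gene Adamts5 fell by 3.19 ± 0.19.

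Among TGF-beta and activin genes, 5 of 18 in the list of ligands and receptors were called, and 20 of 22 in the list of targets and contractile genes, a contrast that was not tested. Of the 18 ligands, receptors, binding proteins and SMADs, 2 rose (11.1%), 3 fell (16.7%) and 13 were not called. Over all genes tested, 12.8% rose and 12.7% fell. Inhbb, the activin subunit beta-B, rose by 2.79 ± 0.17, from 9.34 and 8.73 to 11.78 and 11.89, and Fst, the activin antagonist follistatin, by 1.39 ± 0.18. The ligand gene Tgfb3 fell by 1.56 ± 0.17. Counts of risen genes without each array were 4, 2, 3 and 2. Of 22 TGF-beta targets and contractile genes, 18 fell (81.8%), 2 rose and 2 were not called, with a median of -1.57. Ccn2, the connective tissue growth factor, fell by 3.35 ± 0.13, from 13.11 and 12.84 to 9.65 and 9.61. Actg2, the enteric smooth muscle actin, fell by 3.36 ± 0.19, from 10.99 and 10.68 to 7.51 and 7.44. Igfbp3 went the other way and rose by 0.83 ± 0.14, and Smad7, a direct feedback inhibitor of the pathway, changed by -0.26 ± 0.13 without being called. Counts of risen targets without each array were 2, 2, 2 and 1.

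Ccn2 is also a target of the co-activators YAP and TAZ, which respond to cell spreading and tension. In the list of YAP and TEAD targets and pathway genes, 9 of 15 fell and 2 rose, with a median of -0.62. Ankrd1, a nuclear ankyrin repeat protein gene, fell by 2.45 ± 0.17, from 9.71 and 9.83 to 7.56 and 7.09, and Amotl2, which binds YAP, by 1.48 ± 0.16. Yap1 itself changed by 0.02 ± 0.14 and its days overlapped. Fjx1 was among the 2 that rose (1.34 ± 0.18), and without each array 2, 2, 2 and 1 rose.

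In the BMP list, 9 of 22 genes rose (40.9%), 2 fell and 11 were not called, with a median of 0.09 that took the other sign in 1 of 15 alternative settings. The ligands were led by Bmp2, with Bmp7 also higher (1.16 ± 0.15, from 5.73 and 5.55 to 6.91 and 6.68), while Bmp4 fell by 1.01 ± 0.12. Id1, a helix-loop-helix inhibitor and direct BMP target, rose by 2.16 ± 0.12, from 9.57 and 9.56 to 11.73 on both day 5 arrays. The antagonist gene Grem1, or gremlin-1, rose by 1.96 ± 0.15, from 10.23 and 9.99 to a day 5 mean of 12.06. The receptor gene Bmpr1a changed by -0.07 ± 0.12 and was not called. Counts of fallen genes without each array were 3, 3, 2 and 1.

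Wnt feedback genes rose in 11 of 21 cases (52.4%), 3 fell and the median was 0.55. Axin2, a negative regulator and classic beta-catenin target, rose by 2.35 ± 0.13, from 5.76 and 5.67 to 7.97 and 8.17. Apcdd1, a membrane inhibitor of Wnt, rose by 3.51 ± 0.22, from 8.48 and 8.74 to 12.06 and 12.19, and the receptor gene Tnfrsf19 by 3.34 ± 0.18, from 4.68 and 4.66 to 7.78 and 8.24. Lgr5, a receptor for R-spondins that is often read as a beta-catenin target, went against them. It fell by 3.43 ± 0.22, from 8.69 and 8.0 to 4.84 and 5.00. Counts of fallen members without each array were 2, 2, 2 and 1. Among 22 Wnt ligands and receptors, 2 rose (9.09%) and 4 fell (18.2%), against 12.8% and 12.7% of all genes tested. Wnt5b (0.88 ± 0.18) and the receptor gene Fzd6 (0.77 ± 0.15) were the risen pair. Without each array 4, 2, 2 and 2 rose and 3, 2, 2 and 3 fell.

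Feedback genes of the ERK kinase pathway, which growth factors such as basic fibroblast growth factor switch on, rose in 11 of 21 cases, with 3 lower and a median of 0.74. Dusp6, a phosphatase that removes the activating phosphates of ERK, rose by 2.60 ± 0.20, from 9.37 and 9.33 to 11.97 and 11.94. Ereg, the EGF receptor ligand epiregulin, rose by 2.38 ± 0.15, from 7.86 and 7.99 to 10.33 and 10.28. Phlda1 and Ier3, both induced by growth factors, rose by 1.97 ± 0.15 and 1.52 ± 0.14. The feedback inhibitor gene Spry1 fell by 1.49 ± 0.13. Egr1, an immediate early transcription factor, measured 11.47 and 10.62 at day 0 and 10.52 and 10.73 at day 5 and was not called. It was called without the second day 0 array (-0.84), and without each array 1, 4, 1 and 1 members fell.

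Of 21 cAMP and CREB targets and effectors, 8 rose and 2 fell, with a median of 0.31. Crem, a cAMP-responsive transcription factor, rose by 1.76 ± 0.18, from 6.92 and 7.37 to 9.12 and 8.69. Gem, a small GTPase, rose by 1.45 ± 0.21 and the phosphodiesterase gene Pde7b by 1.29 ± 0.13. Dusp1, whose promoter is a textbook CREB target, measured 9.28 and 9.15 at day 0 and 9.29 and 9.28 at day 5 and was not called. Counts of fallen members without each array were 1, 2, 0 and 1.

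The insulin-like growth factor axis was split, with 5 of 18 genes higher, 5 lower and a median of -0.13 that changed sign in 1 of 15 alternative settings. Igf1, the secreted growth factor, fell by 2.76 ± 0.15, from 8.75 and 8.40 to 5.98 and 5.64. The binding protein gene Igfbp5 fell by 2.96 ± 0.21, from 12.04 and 11.34 to 8.50 and 8.96, and Igfbp7 by 2.22 ± 0.13. Igf2 changed by -0.21 ± 0.20 and its days overlapped. It was called without the second day 0 array (-0.59).

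Several genes best known from neurons stood among the largest rises of the comparison. Nptx1, a secreted pentraxin that clusters glutamate receptors, went from 5.38 and 5.34 to 10.49 and 10.54, a rise of 5.16 ± 0.32 (limma adjusted p = 2.48e-07). Nefl, the light neurofilament subunit, went from 5.01 and 4.73, both below the filter value, to 9.85 and 10.02, a rise of 5.07 ± 0.39. Nefm, the medium subunit, rose by 3.76 ± 0.17, from 5.62 and 5.14 to 9.07 and 9.22. Gap43, a growth cone protein, was already higher at day 0, at 8.67 and 8.58, and reached 12.47 and 12.39. None of these 4 genes overlapped between the days, which the choice of the largest rises required. At day 10 the means were 6.58 for Nptx1, 6.55 for Nefl, 7.08 for Nefm and 11.21 for Gap43.

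The neuronal list as a whole was less uniform. Of 27 tested members of the neuronal cytoskeleton and synapse list, 8 rose (29.6%), 4 fell (14.8%) and 15 were not called, with a median of 0.14. Tubb3, the neuronal beta-tubulin often used to stain neurons, fell by 1.64 ± 0.24, from 7.57 and 7.68 to 5.69 and 6.28. The microtubule protein gene Map1b changed by -0.61 ± 0.22 and was not called. Map1b was called without the second day 0 array (-1.02), and without each array 3, 4, 2 and 3 members fell.

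Neural progenitor, glial and neural crest genes rose in 11 of 23 cases (47.8%), 1 fell and the median was 0.42. Sox2, a transcription factor of neural and pluripotent progenitors, rose by 2.58 ± 0.22, from 4.93 and 4.87 to 7.11 and 7.85. The crest transcription factor gene Tfap2a rose by 1.53 ± 0.17, from 5.18 and 5.21 to 6.58 and 6.87, and Sox11 by 1.36 ± 0.15. Hes1, the Notch effector that holds progenitors undifferentiated, fell by 2.35 ± 0.13, from 9.03 and 8.86 to 6.63 and 6.56. Without each array 2, 2, 1 and 1 members fell. Nes, the progenitor filament nestin, overlapped between the days, with a change of 0.14 ± 0.16. Among 31 axon guidance genes, 8 rose and 7 fell, led by Sema7a (2.08 ± 0.20) and the ephrin receptor gene Epha3 (-2.01 ± 0.33), and without each array 10, 5, 6 and 5 rose.

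In the lists of other lineages, 14 of 21 members were not called for skeletal muscle, 11 of 17 for adipocytes and 8 of 10 for endoderm and liver. The shares called higher were 28.6%, 17.6% and 20%, against 12.8% of all genes tested. Those called lower were 4.76%, 17.6% and 0%, against 12.7%. In the skeletal muscle list, 6 of 21 rose, led by Chrna1, the acetylcholine receptor subunit of the muscle endplate (3.37 ± 0.26, from 5.38 and 5.48 to 8.82 and 8.77). The 1 skeletal muscle gene that fell, Acta1 (-1.73 ± 0.38), lost its call without the second day 5 array (-1.24, limma adjusted p = 0.0589). In the adipocyte list, 3 of 17 rose and 3 fell. Car3, a carbonic anhydrase abundant in fat, rose by 3.06 ± 0.16, from 4.75 and 5.24 to 7.96 and 8.16, and Lpl, the lipoprotein lipase, fell by 2.08 ± 0.16, from 9.57 and 9.79 to 7.51 and 7.70. In the endoderm and liver list, 2 of 10 rose, Alb (1.89 ± 0.23, from 4.75 and 5.01 to 6.84 and 6.71) and the endoderm regulator Gata6 (1.06 ± 0.13).

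Simple epithelial genes rose in 4 and fell in 6 of 18 cases, which include the desmosome genes Dsp (1.29 ± 0.16) and Pkp2 (-2.60 ± 0.14). Without each array 2, 4, 2 and 3 rose. Pluripotency genes had 2 up (15.4%) and 2 down (15.4%) among 13, near the 12.8% and 12.7% of all genes tested. Klf4, also a regulator of epithelia, was lower by 1.04 ± 0.21. Without each array 2, 0, 1 and 0 pluripotency genes rose and 1, 2, 1 and 2 fell. Mesenchymal transcription factors rose in 7 and fell in 5 of 25 cases. Twist2 rose by 1.51 ± 0.16, from 10.47 and 10.26 to 11.86 and 11.90, and Osr1 fell by 1.20 ± 0.18. Without each array 7, 5, 8 and 4 rose and 4, 7, 3 and 5 fell.

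Macrophage markers had the largest share of fallen genes among the 51 lists. Of 22 tested, 19 fell (86.4%), 1 rose and 2 were not called, with a median of -2.38. C1qa, a chain of complement C1q made by tissue macrophages, fell by 3.98 ± 0.14, from 9.29 and 9.35 to 5.29 and 5.38. Tyrobp, the signalling adaptor of myeloid receptors, fell by 3.73 ± 0.18, from 9.16 and 9.33 to 5.78 and 5.23. Csf1r, the receptor for macrophage colony-stimulating factor, fell by 2.78 ± 0.13, from 9.52 and 9.21 to 6.56 and 6.61. In these 3 genes the days did not overlap, which for C1qa and Tyrobp the choice of the largest falls required. Adgre1, a surface receptor gene of mature macrophages, fell by 2.54 ± 0.12. The lysozyme genes Lyz2 (-4.06 ± 0.26) and Lyz1 (-4.02 ± 0.23) are near-identical copies whose probe sets may share signal, and the lysosomal protease gene Ctss fell by 3.85 ± 0.29.

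The summed intensity of all 23 measured macrophage markers was 8491 and 9522 on the day 0 arrays and 1091 and 1316 on the day 5 arrays, or 13.4% of the day 0 mean. At day 5, 7 of the 23 lay below the filter value, against 1 at day 0, among them the defining genes Ptprc, a phosphatase of all leukocytes (4.69), C1qb (5.05), C1qc (5.00) and Aif1 (5.19), which stood above it at day 0. Cd14, an endotoxin co-receptor that fibroblasts can express too, was the 1 that rose (0.58 ± 0.14), and it lost its call without the first day 5 array (0.39, limma adjusted p = 0.0948). The part of these cells in the other falls of the comparison was not tested.

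Markers of further cell types shifted less evenly. The summed intensity of 17 endothelial markers was 826.5 to 861.8 at day 0 and 1113 to 1133 at day 5. Without Sox7, their brightest member at day 5, the sum was 818.6 to 854.4 and then 871.8 to 920.9. Among the 13 tested, 4 rose and 1 fell. Sox7, a transcription factor of endothelium and primitive endoderm, rose by 3.36 ± 0.16, from 4.58 and 4.55 to 7.84 and 8.01. Mesothelial genes summed to 2906 to 3180 and then 9028 to 9298, 301% of the day 0 mean. Pdpn, a membrane glycoprotein gene, made up 69.9% of the sum at day 0 and 90.7% at day 5, and without it the sum was 871.7 to 959.9 and then 806.7 to 891.3. Of the 11 tested, 3 rose and 3 fell, with a median of 0.12. Pdpn rose by 1.96 ± 0.12 to 13.01 and 13.04, and mesothelin (Msln) fell by 1.26 ± 0.14. Cartilage and bone markers summed to 776.5 to 1137 and then 426.3 to 489.8, and of 8 tested 2 rose and 3 fell, Col2a1, the main cartilage collagen, among the latter (-1.07 ± 0.14). Without each array 2, 0, 3 and 1 of them rose. Keratinocyte markers summed to 593.8 to 862.3 and then 925.1 to 1104, or 378.9 to 461.4 and then 391.7 to 473.9 without their brightest member Perp, a desmosome gene. Of these markers, 1 of 11 tested rose and 1 fell, with 2, 1, 0 and 2 risen and 1, 1, 0 and 1 fallen without each array. What these markers contribute to the other changes was not tested.

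Of 26 chemokine and cytokine genes, 10 were lower and 4 higher, and the median was -0.23. Cxcl12, the stromal chemokine that retains leukocytes, fell by 3.60 ± 0.19, from 11.15 and 11.02 to 7.50 and 7.47. Cxcl14, another chemokine gene, changed by -3.45 ± 0.17 and Il1rn, the interleukin-1 receptor antagonist, by -3.26 ± 0.17. Il33 went the other way, from 6.35 and 6.33 to 10.70 and 10.28. Without each array 4, 5, 2 and 4 rose. Of 21 interferon-stimulated genes, 11 were lower (52.4%) and 3 higher, and the median was -0.61. Bst2, or tetherin, fell by 1.06 ± 0.15, from 8.81 and 8.42 to 7.65 and 7.46, and the guanylate-binding protein gene Gbp2 by 1.29 ± 0.25. Without each array 5, 1, 1 and 1 interferon genes rose. Of 13 complement and acute-phase genes, 3 rose and 2 fell, among them Ptx3, a pentraxin of innate immunity that fell by 2.50 ± 0.21. The macrophage marker sum fell over the same arrays, and its part in these falls was not tested.

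Of 28 mitotic genes, 23 fell (82.1%), 3 of them at least 2-fold, and 5 were not called. Changes ran from -1.18 to 0.23, with a median of -0.63. Kif23, a kinesin of the dividing cell's midzone, fell by 1.18 ± 0.15, from 9.42 and 9.16 to 8.04 and 8.18. The spindle assembly factor gene Tpx2 fell by 1.12 ± 0.16, from 9.60 and 9.25 to 8.16 and 8.45, and the midzone protein gene Prc1 by 1.08 ± 0.16. The count depended on single arrays and was 15, 18, 13 and 12 without each of them. DNA replication genes fell in 7 of 26 cases, among them Orc1, a subunit of the origin recognition complex (-0.93 ± 0.20), with a median of -0.37. Without each array 8, 8, 2 and 7 of them fell.

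Among cyclin-dependent kinase inhibitors and their partners, 6 of 24 rose. Cdkn2a, the locus of p16 and p19Arf, rose by 2.37 ± 0.13, from 9.33 and 9.68 to 11.91 and 11.85. Its neighbour Cdkn2b, the inhibitor p15, rose by 1.06 ± 0.12, and Mdm2, a p53 target that degrades p53, by 1.27 ± 0.17. Ccnd1, or cyclin D1, rose as well (0.94 ± 0.20). The list also held 3 fallen genes, and without each array 4, 0, 0 and 0 fell. In the list of growth arrest and secretory senescence genes, 6 of 16 rose and 6 fell, among them Mmp3 upward and Igfbp5 and Igfbp7 downward, and without each array 4, 5, 4 and 3 fell.

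**Figure D2:**
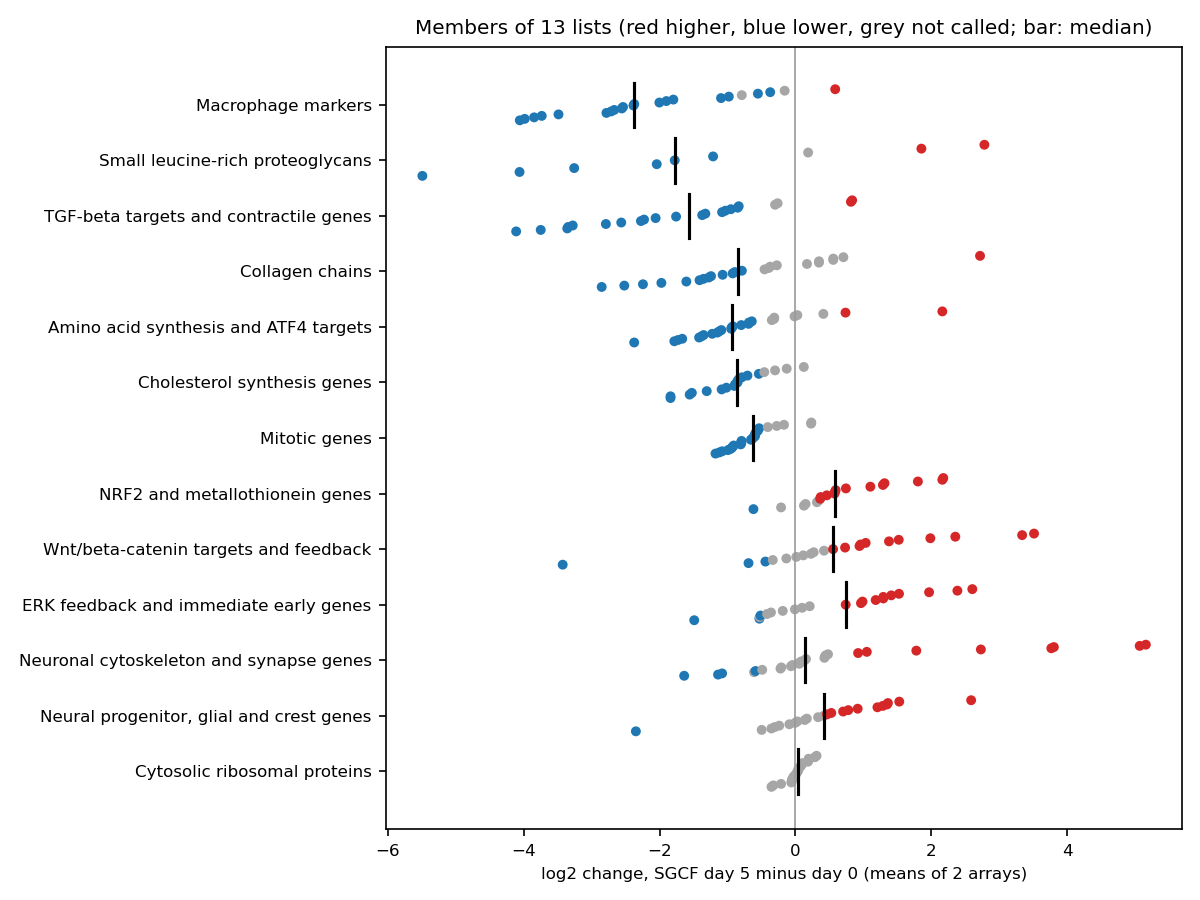
The log2 change by day 5 of SGCF (means of 2 arrays) for each tested member of 13 gene lists, with 1 point per gene, red where called higher, blue where called lower and grey where not called, and a black bar at the list's median. The macrophage list has its median at -2.38 and the mitotic list runs from -1.18 to 0.23 around a median of -0.63, while the neuronal list spreads from -1.64 (Tubb3) to 5.16 (Nptx1).

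Cholesterol synthesis genes fell in 15 of 19 cases (78.9%), with a median of -0.85 and 4 not called. The pathway turns acetyl-CoA into sterols, and its genes share control by the sterol-sensing factor SREBP2. Hmgcs1, which makes HMG-CoA, fell by 1.56 ± 0.12, from 11.84 and 11.64 to 10.26 and 10.11. Fdps, farnesyl diphosphate synthase, fell by 1.84 ± 0.14, from 11.27 and 11.14 to 9.43 and 9.31, and Cyp51, the lanosterol demethylase, by 1.84 ± 0.14, from 10.28 and 10.44 to 8.64 and 8.41. Hsd17b7, another enzyme of the route, changed by 0.12 ± 0.13 and its days overlapped. Fatty acid genes moved less, with 2 of 20 higher and 5 lower, led by the thioesterase gene Acot1 (1.45 ± 0.13). Without each array 1, 2, 1 and 1 of them rose and 3, 6, 1 and 2 fell.

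Genes of amino acid synthesis and other targets of ATF4, the transcription factor of the integrated stress response, fell in 18 of 26 cases (69.2%), with 2 higher and a median of -0.93. Nupr1, a stress-induced chromatin protein, went from 10.13 and 9.85 to 7.61 and 7.63, a change of -2.37 ± 0.13. Chac1, which degrades glutathione, went from 8.0 and 8.25 to 6.22 and 6.46, a change of -1.78 ± 0.14, and the pseudokinase gene Trib3 fell by 1.73 ± 0.18. Slc7a11, the cystine importer, opposed them and went from 5.55 and 5.67 to 7.72 and 7.82, a rise of 2.16 ± 0.17. Herpud1, an endoplasmic reticulum protein gene from the chaperone list, fell by 1.20 ± 0.12, from 9.38 and 9.52 to 8.31 and 8.18.

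The promoters of Slc7a11, Chac1, Nupr1 and Herpud1 share the C/EBP-ATF response element that ATF4 is known to bind. They are shown because the genes moved in opposite directions. No match was found for Trib3. RefSeq promoter windows of GRCm38.p6, 250 bases before to 50 after an annotated start, were searched on both strands for TGATGCAA, which is in capitals, as is its reverse complement. A gene can have more than 1 window, and that of Slc7a11 lies inside the gene (chr3:50364936-50499087). Excerpts are printed 5′ to 3′ on the strand of the gene, from chr3:50443623-50443709 (minus strand) for Slc7a11, chr2:119351019-119351086 (plus) for Chac1, chr7:126625543-126625610 (minus) for Nupr1 and chr8:94386287-94386354 (plus) for Herpud1.
Slc7a11: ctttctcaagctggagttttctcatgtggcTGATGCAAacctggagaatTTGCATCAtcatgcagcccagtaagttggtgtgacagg
Chac1: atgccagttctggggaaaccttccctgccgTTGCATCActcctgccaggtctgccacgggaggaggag
Nupr1: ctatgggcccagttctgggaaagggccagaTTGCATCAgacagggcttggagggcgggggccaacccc
Herpud1: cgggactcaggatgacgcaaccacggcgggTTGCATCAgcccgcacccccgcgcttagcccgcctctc
The element was in 6 of the 22 promoters found for the ATF4 list (27.3%), 1.03% of all 27025 genes in the promoter table and 0.806% of the tested genes with a promoter there. The 6 genes were Nupr1, Chac1 and Aars, which fell, Slc7a11 and Vldlr, which rose, and Atf3, which was not called. Slc7a11, the gene that rose most in the list, carried 2 matches and the others printed here 1 each. The other motifs searched in the same windows were TGACGTCA, CTTTGATG, CACGTGAC and the CArG box, and no match in the promoters of named genes overlapped a match of another motif. The CArG box was in 4.96% of promoters of genes that fell at least 2-fold, 2.04% of those that rose at least 2-fold and 1.73% of those of tested genes. In the same fallen genes the C/EBP-ATF element stood at 2.84% against 0.806% of tested genes, and CACGTGAC at 1.06% against 4.46%. TGACGTCA stood at 2.84% against 3.33% and CTTTGATG at 0% against 0.911%. These shares were not tested. A match is a description of the letters in a window and not of binding.

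Genes of the NRF2 oxidative defence and metallothioneins rose in 13 of 19 cases (68.4%), with 1 lower (0, 1, 0 and 0 without each array) and a median of 0.58. The metallothionein genes Mt2 and Mt1, which bind zinc and cadmium, rose by 2.18 ± 0.12, from 9.37 and 9.42 to 11.57 on both arrays, and 1.80 ± 0.12, from 10.75 and 10.46 to 12.38 and 12.44. Srxn1, which repairs peroxiredoxins, rose by 1.31 ± 0.13. Slc7a11 is a member of this list as well as of the ATF4 list. In the lysosome list, 10 of 22 rose and 3 fell, with Ctsl (1.10 ± 0.11) and Ctsb (1.12 ± 0.14), both cathepsin genes, higher and Ctsc (-2.03 ± 0.15) lower. Without each array 9, 9, 5 and 6 rose. The extended E-box CACGTGAC, the core of the site that the lysosomal regulator TFEB binds, was in 6 of 17 lysosome promoters (35.3%), against 4.46% of those of tested genes. The genes with a match were Atp6v0d1, Gla and Mcoln1, which rose, and Ctsa, Ctsd and Lamp1, which were not called. A link between the site and the changes was not tested.

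Of 20 endoplasmic reticulum chaperones, 6 fell and 1 rose, Dnajb9 (0.70 ± 0.14), and 5, 5, 3 and 5 fell without each array. Of 22 glycolysis and hypoxia genes, 4 fell (18.2%) and 3 rose (13.6%), against 12.7% and 12.8% of all genes tested. Among them were the peptide hormone gene Adm (-1.21 ± 0.15) and the oxidase gene Ero1a (-1.01 ± 0.12). Without each array 5, 1, 2 and 0 rose. Neither the 27 oxidative phosphorylation subunits nor the 22 cytosolic ribosomal proteins held a gene called by limma. That absence depended on single arrays. Without the first day 0 array both lists held a gene called lower, and without the second some subunits were called higher. At an unadjusted p under 0.05, 2 and 3 of them passed. With the trend and robust options of limma 3 subunits were called higher and 1 ribosomal protein gene lower. With median centring 2 ribosomal protein genes were called higher. Their changes ran from -0.209 to 0.286 and from -0.354 to 0.31.

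**Figure D3:**
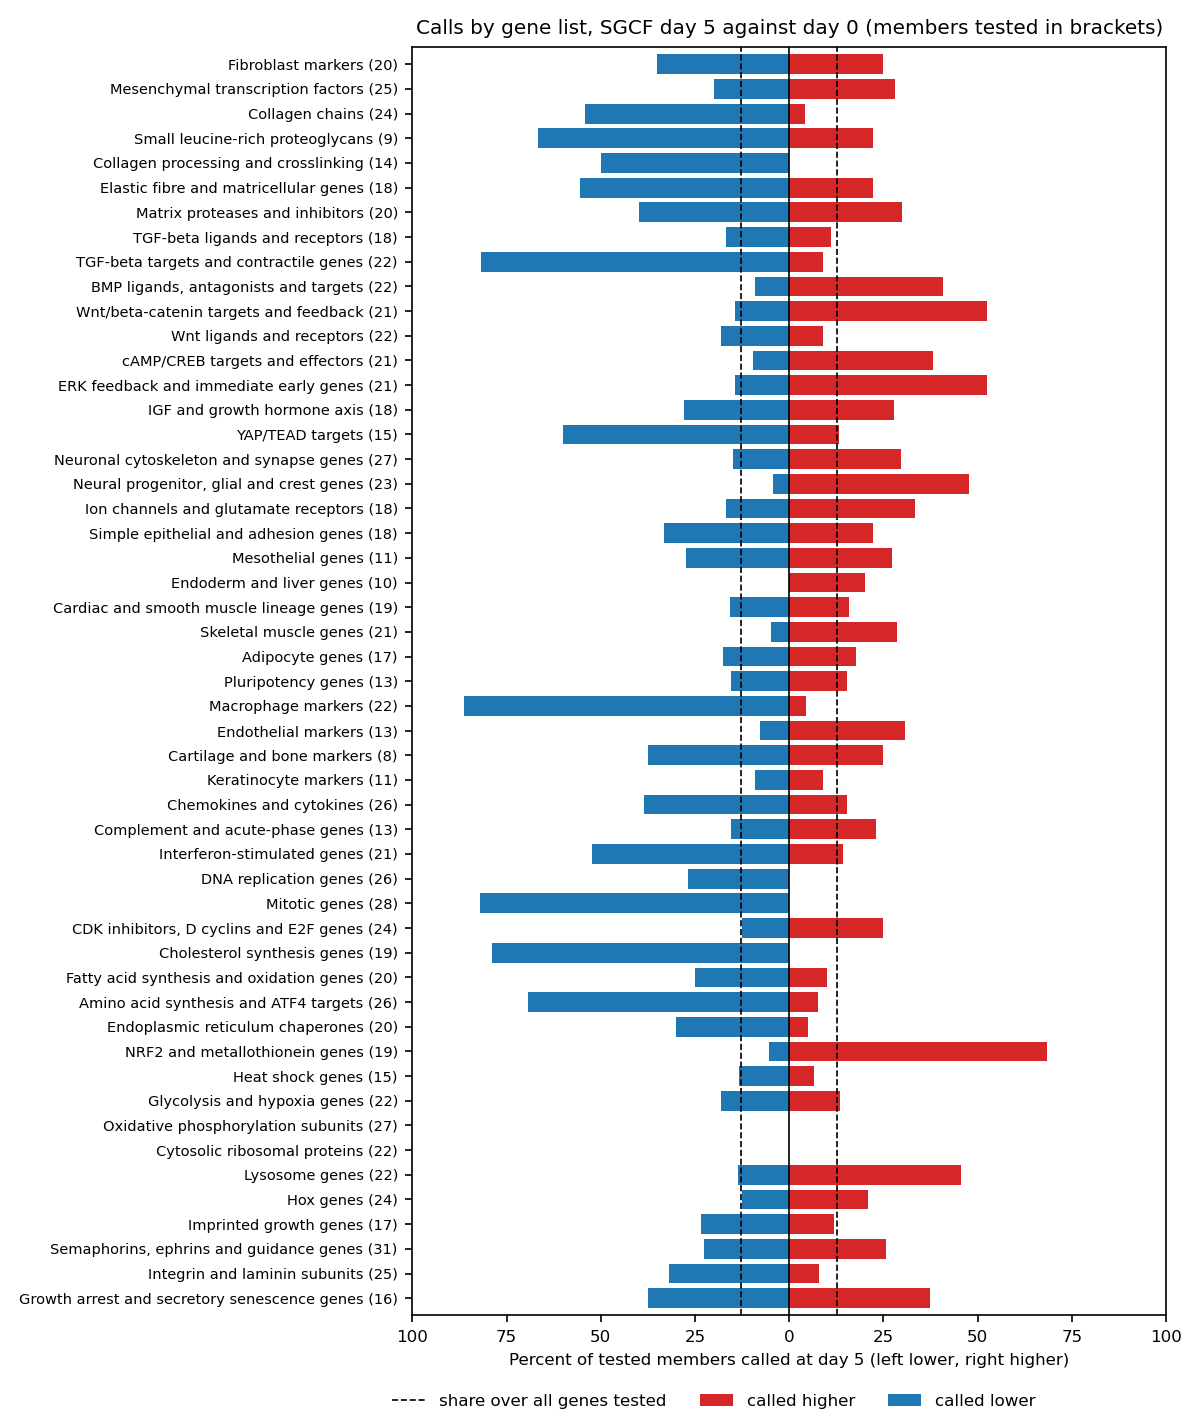
The percent of tested members of each of 51 gene lists called lower (blue, left) or higher (red, right) by day 5 of SGCF, with the number of members tested in brackets and dashed lines at the shares over all genes tested, 12.7% lower and 12.8% higher. Macrophage markers (86.4%), mitotic genes (82.1%) and TGF-beta targets and contractile genes (81.8%) have the longest bars to the left and NRF2 and metallothionein genes (68.4%) the longest to the right.

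The same 5 days under 6TCF gave 1617 genes higher (15.1%) and 1341 lower (12.6%). Changes by day 5 differed between the arms, by the test of the difference, in 958 genes (8.98%), of which 311 (2.91%) were more positive under SGCF and 647 (6.06%) more negative. The arrays of the arms differed in raw brightness, with medians of 60.9 to 86.2 under SGCF and 102 to 142 under 6TCF, so a processing batch and the arm cannot be told apart. The 3' minus 5' difference of the actin controls went from 0.297 and 0.388 at day 0 to 0.761 and 0.877 at day 5 under 6TCF, and from 0.276 and 0.384 to 0.481 and 0.42 under SGCF, and its part in the arm differences was not tested. The first of these counts was 152 and 157 without the second and the first 6TCF day 0 array, 201 without the second SGCF day 5 array and 569 without the first SGCF day 0 array. The second count was 413 without the second 6TCF day 0 array.

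Lgr5 showed the widest difference. It fell by 3.43 under SGCF and rose by 2.17 under 6TCF, a difference of -5.60 ± 0.31 (limma adjusted p = 2.49e-06). The changes of Igfbp5 were -2.96 and 1.84, and those of Tgm2, a transglutaminase that crosslinks proteins, -3.15 and 0.94. Egfl6, a secreted matrix protein gene, changed by -1.84 and 1.87. Wnt4, a Wnt ligand, measured 7.54 and 7.30 at day 0 and 7.17 and 6.96 at day 5 of SGCF without being called, against a rise of 3.31 under 6TCF. The protease gene Adamts15 changed by -0.65 and 2.97.

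In the other direction, Upp1, or uridine phosphorylase 1, rose by 3.14 ± 0.18 under SGCF, from 5.58 and 5.93 to 8.82 and 8.98, and changed by 0.35 under 6TCF without being called. Lce1h, a cornified envelope gene, rose by 1.04 and fell by 2.00, and Bdnf, the neurotrophin, rose by 0.97 and fell by 1.26. Esm1, an endothelial proteoglycan, rose by 1.93 against -0.26. Egr1, not called under SGCF, fell by 2.58 under 6TCF, so that its difference was positive (2.16 ± 0.32). Nptx1 rose in both arms, by 5.16 and 3.03, and its difference (2.13 ± 0.45) lost its call without the second 6TCF day 5 array.

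By list, the ERK feedback genes differed in 11 of 21 cases, 9 of them toward SGCF, and the Wnt feedback genes in 9 of 21, all toward 6TCF. Dusp6 rose by 2.60 under SGCF and by 1.31 under 6TCF, and Axin2 by 2.35 and 3.07. Small leucine-rich proteoglycans differed in 8 of 9 cases and macrophage markers in 15 of 22, each of them more negative under SGCF. Both lists also held falls under 6TCF, with 5 of 9 proteoglycans lower and 3 higher, and 15 of 22 macrophage markers lower and 2 higher. Under 6TCF the TGF-beta target and contractile list had 17 of 22 lower and 2 higher. The ATF4 list had 19 of 26 lower and 2 higher, and cholesterol synthesis 12 of 19 lower and 1 higher. Mitotic genes had 2 of 28 lower and 0 higher. Fmod changed by -4.06 under SGCF and by -0.73 under 6TCF. Igf1 fell by 2.76 under SGCF and changed by 0.67 under 6TCF.

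**Figure D4:**
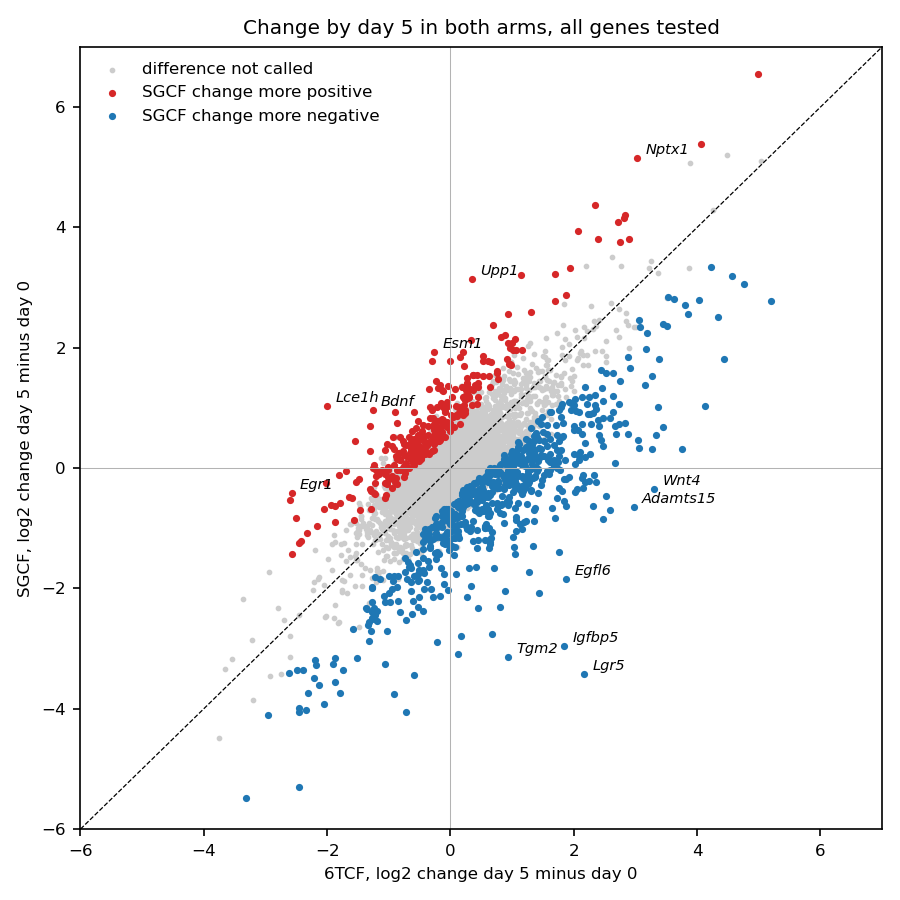
The log2 change by day 5 under SGCF (vertical) against that under 6TCF (horizontal) for all 10674 genes, with the dashed line marking equal change, red points where the SGCF change was called more positive (311 genes), blue where more negative (647) and grey where the difference was not called. The 12 named genes have the largest differences in each direction, from -5.60 (Lgr5) to 3.04 (Lce1h).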

How the data were processed

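RNA was measured on 12 Affymetrix mouse expression arrays. What was deposited is a linear intensity for each of 22690 probe sets, 64 of them controls. The authors' steps are known only as tool names (RMA, MAS5 and limma, without roles, per the submitters' processing notes). Array medians differed, so log2(intensity + 16) values were quantile normalised between all 12 arrays. The 20380 probe sets that the platform annotation pairs with 1 symbol were kept (691 have several, 1555 none here), taking for each of 12393 genes the one of highest mean. Of the 20380, 20351 matched a RefSeq gene by Entrez number and 0 symbols changed. Genes whose highest group mean exceeded the 25th percentile of all values (5.25) were tested, 10674 in all.

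Differences were tested on this log2 scale, computed from the deposited values, in R 4.3.3 with limma 3.58.1 (lmFit on 6 group means, contrasts, eBayes, with 6 residual and 5.75 prior degrees of freedom), checked on simulated data, with Benjamini-Hochberg adjustment. The arm difference is the SGCF change minus the 6TCF change. Alternatives were other pseudocounts, scalings, filters, probe set rules, samples fitted, a replicate block, limma options and each array left out.

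The 51 lists (1200 entries, 955 distinct genes tested) and the comparison were chosen with earlier results of these data known, so list counts are descriptions without a test. Named genes are the 15 largest called rises and falls of at least 2-fold without overlap between the days, in each list the 4 called members of largest change, the largest called change against the majority and the brightest member not called, the 6 largest arm differences each way, fibroblast and macrophage markers and control genes. Aars, Vldlr, Atf3, Atp6v0d1, Gla, Mcoln1, Ctsa and Ctsd were named for a promoter match, after their values were seen. Of 288 genes under the rule, 1 had probe sets called in opposite directions and is not reported. Motifs were searched with Python 3; figures used matplotlib.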

Additional observations from a re-analysis of the deposited data

Results flagged for a closer look

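For the genes below, the change by day 5 under SGCF differed from that under 6TCF by the limma test of the difference itself, with an adjusted p under 0.05 for each. Values are the SGCF change minus the 6TCF change on the log2 scale. More positive under SGCF were Bmp2 (1.56), Mmp3 (1.33), Nptx1 (2.13), Stc1 (2.02), Gch1 (1.38), Il33 (1.34), Lrrn1 (1.37), Mmp10 (1.86), Rgs5 (1.42), Gap43 (0.91), Nefm (1.01), Lce1h (3.04), Upp1 (2.79), Bdnf (2.23), Esm1 (2.19) and Egr1 (2.16). More negative were Cdc42ep3 (-1.69), Cxcl12 (-1.48), Tyrobp (-1.95), Tnmd (-1.43), Postn (-2.83), Ccn5 (-1.87), C1qa (-1.53), Lyz1 (-1.67), Lyz2 (-1.60), Fmod (-3.33), Lox (-1.16), Prss23 (-2.84), Aspn (-2.18), Adamts15 (-3.62), Wnt4 (-3.66), Egfl6 (-3.71), Tgm2 (-4.09), Igfbp5 (-4.81) and Lgr5 (-5.60). The 2 lysozyme genes may share signal. The difference of Nptx1 lost its call without the second 6TCF day 5 array (1.82, limma adjusted p = 0.0565). Arrays of the 2 arms also differed in brightness, and its part in these differences was not tested.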

How the results depend on the processing

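Fitted on the 4 arrays alone, limma called 748 genes higher and 753 lower, with 15 mitotic genes lower and 8 NRF2 and metallothionein genes higher. That fit uses fewer samples. With a pseudocount of 64, 248 genes rose and 233 fell at least 2-fold, since a larger pseudocount shrinks the changes of dim genes. Leaving out single arrays gave 944 to 1531 genes higher and 913 to 1370 lower, 398 to 449 and 374 to 458 at least 2-fold, and 152 to 569 and 413 to 775 for the arm difference. It gave 12 to 18 mitotic genes lower. Where 1 array was left in a group, it was assumed to vary like the other groups. All 782 genes changed at least 2-fold kept their direction in each setting compared gene by gene, and 766 to 782 of them were called there. Of 224 called named genes, 32 lost the call without some SGCF array and 0 changed direction. The median change of 35 of 51 lists kept its sign in all 15 settings. The labels do not say whether replicate numbers pair the arrays. Over genes, the deviations of same-numbered SGCF arrays correlated at r = -0.277 between days 0 and 5. The values were 0.11 between days 0 and 10 and -0.00643 between days 5 and 10, and they cannot decide whether arrays were paired. With the replicate block 1227 genes rose and 1205 fell (257 and 576 for the arm difference), and with the day 5 numbers crossed, chosen after seeing the data, 1410 and 1360. Probe sets near the floor of the array limit what dim genes can show.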
